A study of Mus musculus with 23 samples.

Results

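The levels of 10 genes of the pluripotent embryo and the foetus were measured across 8 subclones of Lewis lung carcinoma (LLC), a mouse lung tumour cell line: Dppa4, Dppa2, Sox2, Klf4, Afp, Cd34, Lin28b, Igf2bp1, Igf2bp3 and Hmga2. They are 10 of the 18193 genes that the arrays measured, and they were picked by name with their levels in these subclones already known. For each gene the probe set (the set of oligonucleotides that reads 1 transcript) with the highest mean intensity over the 23 arrays was used. Every subclone is a line grown from limiting dilution of the parental cells, so each stands for 1 clone. The groups were subclones 2, 3, 6, 18, 19, 23, 24 and 28, with 3 arrays each except subclone 6 with 2. All were kept in DMEM with 10% foetal bovine serum and then spent 24 h in serum-free medium before total RNA was taken. Arrays of 1 subclone are labelled as biological replicates, without a word on separate cultures, so the p-values below measure only the spread between these arrays. The design names no baseline subclone, and the question is how the levels differ between clones of 1 tumour line.

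Pluripotency genes keep early embryonic cells able to form every tissue. Sox2 and Klf4 are transcription factors that, with Pou5f1 and Myc, can return a somatic cell to that state, and Dppa2 and Dppa4 are a pair of DNA-binding proteins that act together on the chromatin of early embryonic genes. Oncofetal genes are active in the foetus, largely silent in the adult, and active again in some tumours. Afp (alpha-fetoprotein) is the main serum protein of the foetal liver and yolk sac, Lin28b blocks the maturation of let-7 microRNAs, and Hmga2, Igf2bp1 and Igf2bp3 are among the messages that let-7 holds down. Cd34 is a surface sialomucin of blood progenitors and of the endothelium.

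The deposited values are linear intensities, used here as log2(intensity + 16), so folds are on that scale and understate the change of dim genes. The array medians were 40.83 to 45.74 and the array means 412 to 441.1. The number of arrays limits the precision. No detection calls were used, so a floor was set from 71 olfactory and vomeronasal receptor genes, genes of the nose. The 95th percentile of their subclone means was 5.61, an intensity of 32.9, and a gene at or below it is called at the floor. Markers of lung epithelium, the tissue named in the label, were present only in part. Of 12, 5 lay above the floor in at least 1 subclone (Sftpb, Epcam, Krt8, Krt18 and Krt19), whereas Nkx2-1, Sftpa1, Sftpc, Sftpd, Scgb1a1, Foxj1 and Cdh1 were at the floor in all 8. Subclone 18 stood apart: its summed intensity of the 12 was 2239 to 2288, against 4065 to 7162 in the other 7, and Krt8, an epithelial keratin, averaged 5.70 ± 0.14 there (SD, n = 3), against means of 10.32 to 11.29 in the others. The part of this in the values of subclone 18 below was not tested.

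Of the 10 genes, 3 were at the floor in all 8 subclones: Dppa2, Lin28b and Sox2. Another 4, Igf2bp1, Igf2bp3, Hmga2 and Klf4, were above it in all 8, and Dppa4, Afp and Cd34 were above it in some subclones and at it in others. The set therefore goes by its names only in part: with Sox2 and Dppa2 at the floor, as Pou5f1 and Nanog also were, the core pluripotency genes were not measurable above background, and Dppa4 was without its partner. In all, 34 of the 80 pairs of a gene and a subclone were at the floor. The subclone means spread over 1 log2 unit or more for 4 genes, Dppa4 by 6.12, Cd34 by 5.57, Afp by 3.50 and Klf4 by 1.24. The other above-floor genes spread by 0.60 to 0.65 and the genes at the floor by 0.15 to 0.43, and the median spread was 0.64 for the 10 genes and 0.49 for all 18193. Limma's moderated F-test of equal subclone means passed for 7 of the 10 (61.8% of all genes passed), and 4 of the 10 passed with a spread of at least 1 (12.7% of all genes). The genes were chosen for these levels, so the counts describe the choice and nothing is read from them.

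**Figure D1:**
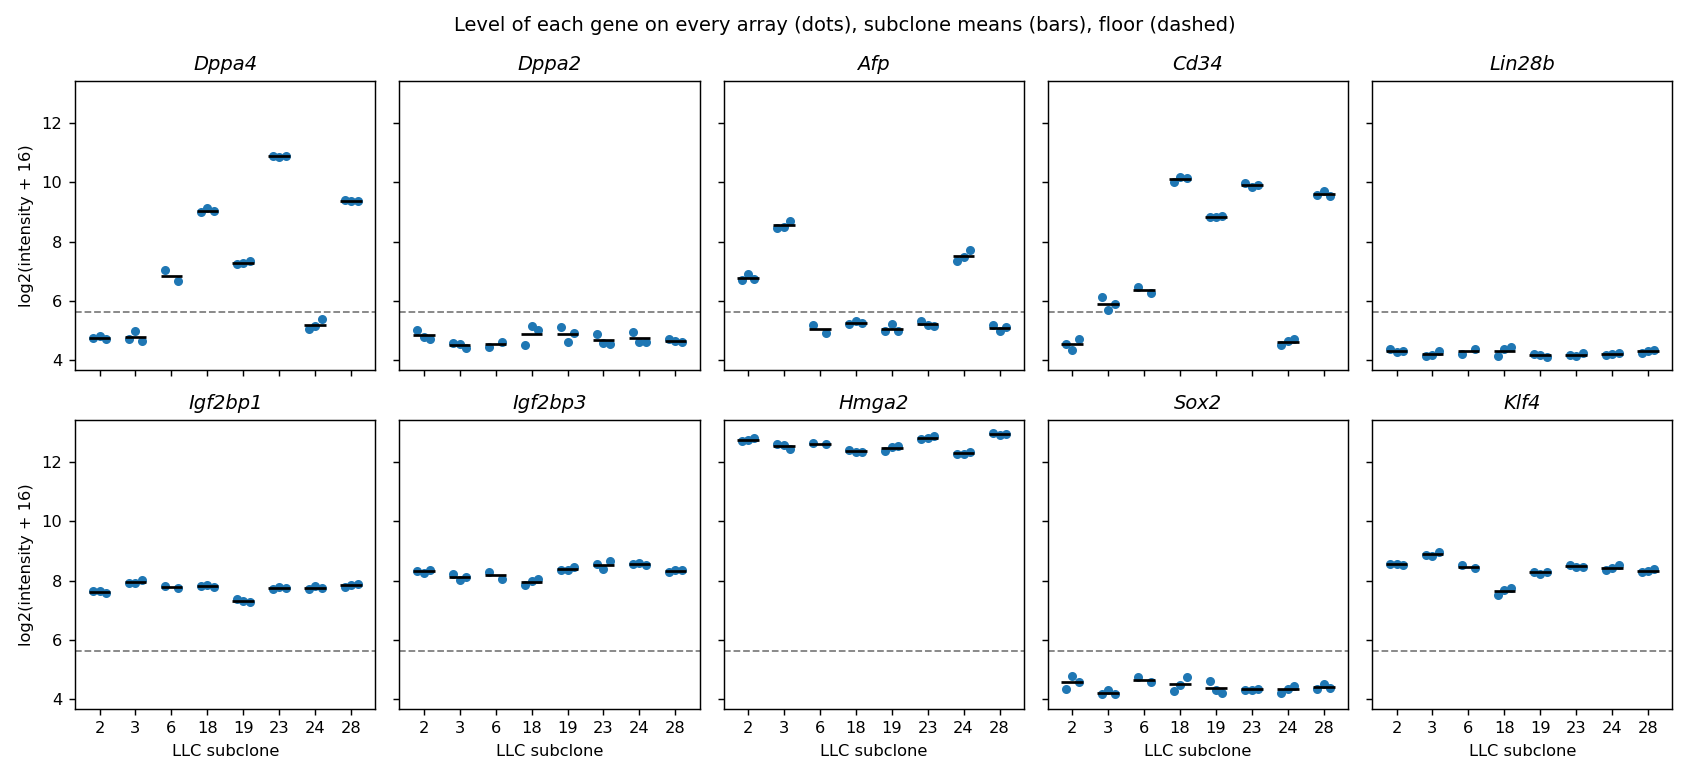
Level of each of the 10 genes as log2(intensity + 16) on the vertical axes, by subclone; points are arrays, short lines mark subclone means, and the dashed line is the floor of 5.61. Dppa4, Cd34 and Afp cross the floor between subclones, and Dppa2, Lin28b and Sox2 lie under it throughout.

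Promoter sequences of the variable genes Afp, Cd34 and Klf4 are shown first. They come from the reference genome and are the same for every clone, so they say nothing on how the clones differ. The RefSeq table used, of build GRCm38.p6, held entries for 7 of the 10 genes, and for 3 of the 4 with a spread of at least 1. Dppa4, the most variable, had none. Each run below is the 250 bases before the annotated start, 5′ to 3′ on the gene's own strand, with every CG in capitals. The windows are Afp at chr5:90490464-90490713 on the plus strand, Cd34 at chr1:194938571-194938820 on the plus strand, and Klf4 at chr4:55532476-55532725 on the minus strand.
Afp: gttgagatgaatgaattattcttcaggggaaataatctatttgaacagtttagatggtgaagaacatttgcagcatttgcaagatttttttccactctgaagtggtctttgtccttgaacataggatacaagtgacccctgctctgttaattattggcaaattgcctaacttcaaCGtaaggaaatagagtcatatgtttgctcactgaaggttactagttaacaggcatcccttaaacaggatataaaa
Cd34: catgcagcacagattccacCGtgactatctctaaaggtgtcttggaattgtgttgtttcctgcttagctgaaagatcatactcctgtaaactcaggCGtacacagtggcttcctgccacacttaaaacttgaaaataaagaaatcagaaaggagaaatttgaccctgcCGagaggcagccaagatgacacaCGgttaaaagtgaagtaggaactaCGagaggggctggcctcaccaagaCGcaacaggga
Klf4: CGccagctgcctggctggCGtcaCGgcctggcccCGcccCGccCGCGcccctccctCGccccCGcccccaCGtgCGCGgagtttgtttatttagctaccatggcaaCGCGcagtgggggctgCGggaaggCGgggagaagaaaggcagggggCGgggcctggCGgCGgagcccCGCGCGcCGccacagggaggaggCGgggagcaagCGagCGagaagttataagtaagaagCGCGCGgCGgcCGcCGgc
The Afp window holds 1 CG and is 36% G or C, the Cd34 window holds 6 CG at 46.4%, and the Klf4 window holds 32 CG at 74%. Among 32851 windows of the same length in the table, 92.1% hold at least as many CG as Afp, 50.4% as many as Cd34 and 4.58% as many as Klf4. The windows of Sox2, with 27 CG, and of Igf2bp3, with 21, are also rich in CG, and those of Hmga2 and Lin28b hold 8 and 6, against a median of 6 over all windows. Searched on both strands, the letters TATAAA, a form of the TATA box, occur in the Afp window at position -7 from the start and in 12.4% of all windows. The letters GTTAAT, part of the site of the liver factor HNF1, occur there at position -105 and in 6.43% of all windows, and the matches of these motifs do not overlap. Neither string occurs in the Cd34 or Klf4 window. These matches describe the letters only.

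Dppa4, on chromosome 16, was the most variable of the 10. In subclone 23 its intensity was 1863.7, 1852.69 and 1890.1 on the 3 arrays, and in subclone 28 it was 666.21, 642.59 and 640.29. Subclone 18 had 494.69, 541.45 and 505.04, and subclone 19 had 134.9, 139.66 and 145.66. Subclone 6 had 114.98 and 85.55 on its 2 arrays. So 5 of the 8 clones carried Dppa4 above the floor, at levels that differed widely between them. In subclone 24 the values were 16.79, 19.88 and 25.55, in subclone 3 they were 9.92, 15.49 and 9.06, and in subclone 2 they were 11.12, 11.88 and 10.3. These last 3 clones were at the floor on every array. In the order 23, 28, 18, 19, 6, 24, 3, 2 the arrays of neighbouring subclones did not overlap, except those of 3 and 2, which are both at the floor.

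On the log2 scale Dppa4 averaged 10.88 ± 0.01 in subclone 23 (SD, n = 3), which was 4.12 ± 0.07 (SE) above the mean of the other 7, a size that depends on the pseudocount because 3 of the 7 are at the floor. Against the floor its level in subclone 23 was at least 38.5-fold higher. Subclones 28 and 18 averaged 9.38 ± 0.03 and 9.05 ± 0.07, at least 13.6-fold and 10.8-fold above the floor. Subclone 19, at 7.29 ± 0.05, and subclone 6, at 6.85 ± 0.26, lay between, at least 3.19-fold and 2.36-fold above it. In linear intensity the mean of subclone 23 was 2.88 times that of subclone 28, the next in order. As RNA was pooled from whole cultures, fewer cells with a transcript and less transcript per cell cannot be told apart for any gene described here. Dppa4 has 1 probe set on the array, so no other measurement of it was at hand.

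Dppa2, the partner of Dppa4 and its close neighbour on chromosome 16, stayed between 5.08 and 19.62 in intensity on all 23 arrays (median 8.69), under the floor of 32.9 on each of them. Its other probe set was also at the floor in all 8 subclones. The measured genes within 3 places of Dppa4 in the gene order, 6430553K19Rik, Dppa2, Gm5485 and the germline gene Morc1, were all at the floor everywhere, and none passed the F-test. Among the 10 nearest protein-coding genes above the floor, chosen after values were seen, 4 passed with a spread of at least 1. Over all genes 12.7% did, and 2284 of the 12273 genes above the floor in some subclone did when fitted alone. The 4 were Phldb2 (1.91), Plcxd2 (1.12), Nectin3 (1.02) and Cip2a (1.36). The median of these 10 spreads was 0.78, and the largest, 1.91, was well short of the 6.12 of Dppa4.

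The genes whose 8 subclone means ran most like Dppa4, among 2315 that passed the F-test with a spread of at least 1, were Usf3 (Pearson r = 0.93), Filip1l (0.93) and Cd34 (0.92). Usf3 and Filip1l also lie on chromosome 16. Of the 5 genes with r over 0.9, 4 are on that chromosome (Usf3, Filip1l, Col8a1 and Tnk2). Besides Dppa4, 385 of the 12273 genes above the floor in some subclone lie on it. That is a wider set than the 2315 genes searched, whose own share on chromosome 16 is not given here. Usf3 was highest in subclone 23, at 9.46, and lowest in subclone 3, at 8.31, while Filip1l was highest in subclone 23 too and lowest in subclone 24, at 10.89. Their spreads of 1.15 and 1.11 were small beside that of Dppa4. Each r is over the 8 subclone means, in which both genes share the same arrays, and it describes genes picked for their likeness.

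The rest of chromosome 16 was shifted slightly between the clones, and chromosome 1, that of Cd34, was shifted more. Over its 385 other genes above the floor, the median difference from the other 7 subclones was 0.19 in subclone 23, 0.18 in subclone 28 and 0.08 in subclone 18. It lay at -0.04 in subclones 2 and 6, -0.03 in subclone 3, -0.13 in subclone 19 and -0.24 in subclone 24. The correlation of these medians with Dppa4 over the 8 subclones was 0.79. A median of 0.19 compares with the 4.12 by which Dppa4 itself was higher in subclone 23. Whether the number of copies of chromosome 16 differs between the clones was not tested. On chromosome 1 the medians ran from -0.35 in subclone 23 to 0.27 in subclone 19. They ran from -0.05 to 0.10 on chromosome 5 and from -0.04 to 0.06 on chromosome 4. On these chromosomes of the other variable genes the order was another: the correlation was -0.37 for the 707 genes of chromosome 1 with Cd34, -0.48 for the 780 of chromosome 5 with Afp, and -0.55 for the 706 of chromosome 4 with Klf4.

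**Figure D2:**
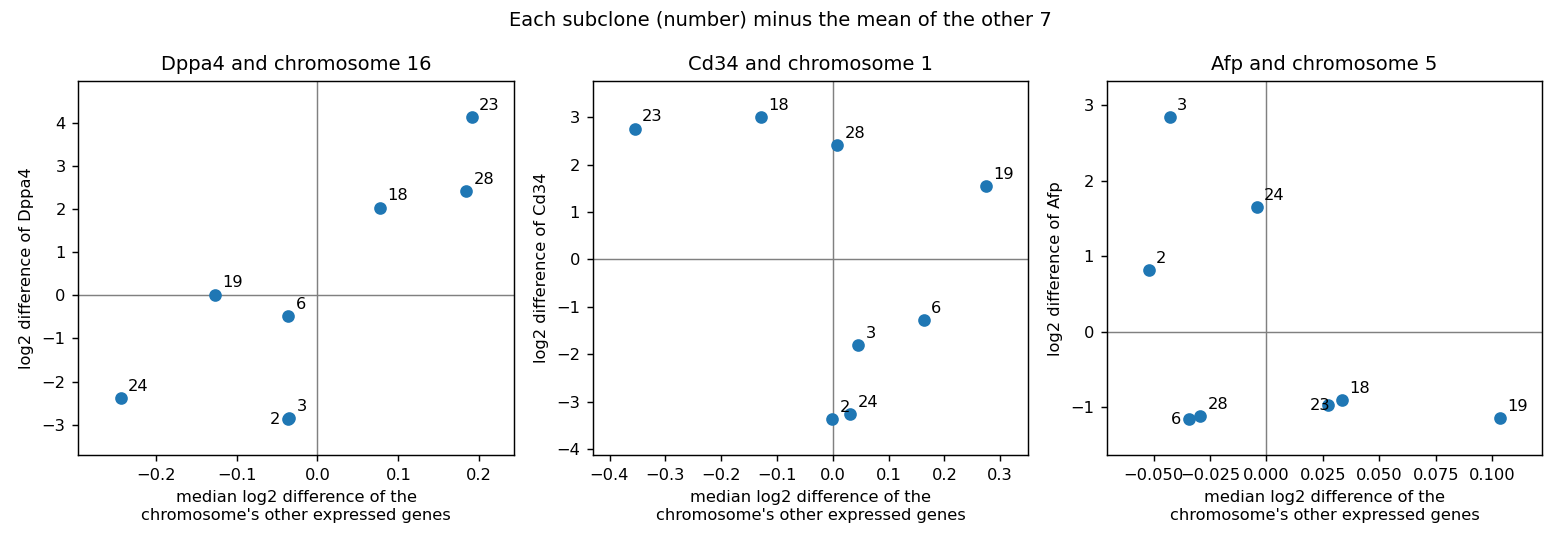
Difference of Dppa4, Cd34 and Afp from the mean of the other 7 subclones (vertical axis, log2) against the median difference of all other genes above the floor on the same chromosome (horizontal axis, log2), with 1 numbered point per subclone. For Dppa4 and chromosome 16 the points climb together (r = 0.79) over a horizontal span of -0.24 to 0.19, and for Cd34 and Afp they do not.

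Cd34, on chromosome 1, was the second most variable and its pattern ran near that of Dppa4. Subclone 18 had intensities of 1024.53, 1137.01 and 1106.83, subclone 23 had 979.46, 894.45 and 947.93, and subclone 28 had 744.44, 810.85 and 721.57. Subclone 19 followed with 437.8, 440.74 and 447.29. These 4 clones were far above the floor. Subclone 6 had 71.73 and 61.08, and subclone 3 had 53.68, 35.53 and 43.35, both low but above it. With the floor at the 99th percentile of the receptor genes, 6.50, these clones are at the floor for Cd34 as well. Subclone 24 had 6.97, 8.91 and 10.18, and subclone 2 had 7.57, 4.32 and 10.02. The last pair were at the floor and overlapped each other, while all other neighbours in the order 18, 23, 28, 19, 6, 3, 24, 2 stood apart, the first pair by a ratio of only 1.16 in mean intensity.

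Mean Cd34 levels were 10.11 ± 0.08 in subclone 18, 9.90 ± 0.07 in subclone 23 and 9.60 ± 0.09 in subclone 28 (SD, n = 3 each), at least 22.6-fold, 19.5-fold and 15.8-fold above the floor. Against the mean of the other 7, subclone 23 was higher by 2.76 ± 0.07 (SE) on the log2 scale and subclone 28 by 2.41 ± 0.07, sizes that depend on the pseudocount because 2 of the 7 are at the floor. Over the 8 subclones Dppa4 and Cd34 had a Pearson r of 0.92 and a Spearman rho of 0.90. Without subclones 23 and 28, the farthest from the median of Dppa4, r was 0.93 over 6 subclones, and without subclone 18 it was 0.92 over 7. The genes nevertheless differ in rank: Dppa4 in subclone 23 was 2.88 times its level in the next clone, where Cd34 had subclones 18, 23 and 28 close together. Subclone 3 had Cd34 above the floor and Dppa4 at it, except with the higher floor of 6.50, where both are at it.

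Cd34 is best known from blood progenitors and endothelium, so markers of those cells, and of fibroblasts, were read beside it. Of 13 endothelial markers, 5 were above the floor in some subclone (Flt1, Tie1, Esam, Eng and Sox7), and Pecam1, Cdh5, Kdr, Tek, Vwf, Emcn, Erg and Sox17 were at the floor in all 8. Their summed intensity was 524.67 to 586.07 in subclone 18, the clone with most Cd34, against 853.09 to 1139.13 in the other 7. Of 11 measured blood-cell markers 4 were above the floor in all 8 subclones (Gata2, Runx1, Spi1 and Cd68). The defining Ptprc and Kit, as well as Gata1, Tal1, Lyl1, Itgam and Cd3e, were at the floor in all 8. The summed intensity of the 11 was 1874.93 to 1908.29 in subclone 18 and 2965.6 to 3069.58 in subclone 28, the lowest and highest of the 8 subclones. Of 8 measured fibroblast markers, 6 were above the floor in some subclone (Pdgfra, Pdgfrb, Col1a2, Col3a1, Dcn and Vim). Each subclone had 5 of them above it, except subclone 18 with 6. The summed intensity of the fibroblast markers was 25922 to 27381 in subclone 18, within the 25039 to 33224 of all arrays. Single markers still differed: 3 of the 8 passed the F-test with a spread of at least 1 (37.5%, against 12.7% of all genes). Against the mean of the other 7, subclone 18 had 1 marker higher by at least 1 (0.885% of all genes) and 2 lower (1.8%). Subclone 28 had 2 higher (0.995%) and 0 lower (0.352%). Podxl, a sialomucin of the Cd34 family, had means of 7.46 to 8.32 with a spread under 1, except without the first array of subclone 6, where it passed with 1.09, and Podxl2 was at the floor.

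The nearest likenesses of Cd34 were Ctsf, which encodes the lysosomal protease cathepsin F (r = 0.97), Ppm1e, a protein phosphatase (0.97), and Cyria (0.96). Ctsf averaged 6.45 in subclone 18, 6.46 in subclone 19 and 6.29 in subclones 23 and 28, against 4.83 to 5.15 in the other 4, all of which were at the floor. Cyria averaged 6.45, 6.54, 6.19 and 6.62 in subclones 18, 19, 23 and 28, against 4.28 to 4.64 in the others. With the floor at the 99th percentile of the receptor genes, 6.50, Ctsf is at the floor in every subclone. Above that floor, Ppm1e is found only in subclone 18 and Cyria only in subclones 19 and 28. Of the 18 genes with r over 0.9, 1 is on chromosome 1. Besides Cd34, 707 of the 12273 genes above the floor in some subclone lie on that chromosome. That is a wider set than the 2315 genes searched, whose own share on chromosome 1 is not given here. Around Cd34 itself, A330023F24Rik was the only measured gene within 3 places and spread by 0.42. Among the 7 nearest protein-coding genes above the floor that the chromosome end allowed, A130010J15Rik (1.27) and Plxna2 (3.06) passed with a spread of at least 1. Over all genes 12.7% did, and 2284 of the 12273 genes above the floor in some subclone did when fitted alone.

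Afp, on chromosome 5, was above the floor in other clones than Dppa4. Subclone 3 had intensities of 338.1, 341.05 and 399.85, subclone 24 had 145.56, 164.39 and 192.33, and subclone 2 had 87.14, 104.56 and 90.69. All other arrays lay under the floor: 20.58 and 14.1 in subclone 6, 21.65, 23.55 and 22.49 in subclone 18, and 15.86, 21.21 and 15.4 in subclone 19. Subclone 23 had 23.8, 20.66 and 19.18, and subclone 28 had 20.49, 15.42 and 18.54. The 3 positive clones did not overlap each other or any other clone, and the 5 clones at the floor have no meaningful order. The 3 clones with Afp were the 3 in which Dppa4 was at the floor, and the 5 clones with Dppa4 were the 5 in which Afp was at the floor.

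On the log2 scale Afp averaged 8.55 ± 0.13 in subclone 3, 7.51 ± 0.18 in subclone 24 and 6.78 ± 0.12 in subclone 2 (SD, n = 3 each), at least 7.66-fold, 3.73-fold and 2.25-fold above the floor. Subclone 3 was higher than the mean of the other 7 by 2.84 ± 0.08 (SE), and subclone 24 by 1.65 ± 0.08. The size of both depends on the pseudocount, because 5 of the subclones each was set against are at the floor. In linear intensity subclone 3 had 2.15 times the Afp of subclone 24. Afp against Dppa4 gave a Pearson r of -0.77 and a Spearman rho of -0.52 over the 8 subclones, and Afp against Cd34 gave -0.73 and -0.43. Without subclones 23 and 28, the farthest from the median of Dppa4, the r of Afp with Dppa4 was -0.81 over 6 subclones. Without subclones 3 and 24, the farthest from the median of Afp, its r with Cd34 was -0.73 over 6. That leaves subclone 2 as the only clone with Afp above the floor, so this value rests on it. In all of them the points at the floor carry no order, and each coefficient mostly restates which clones are above it.

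**Figure D3:**
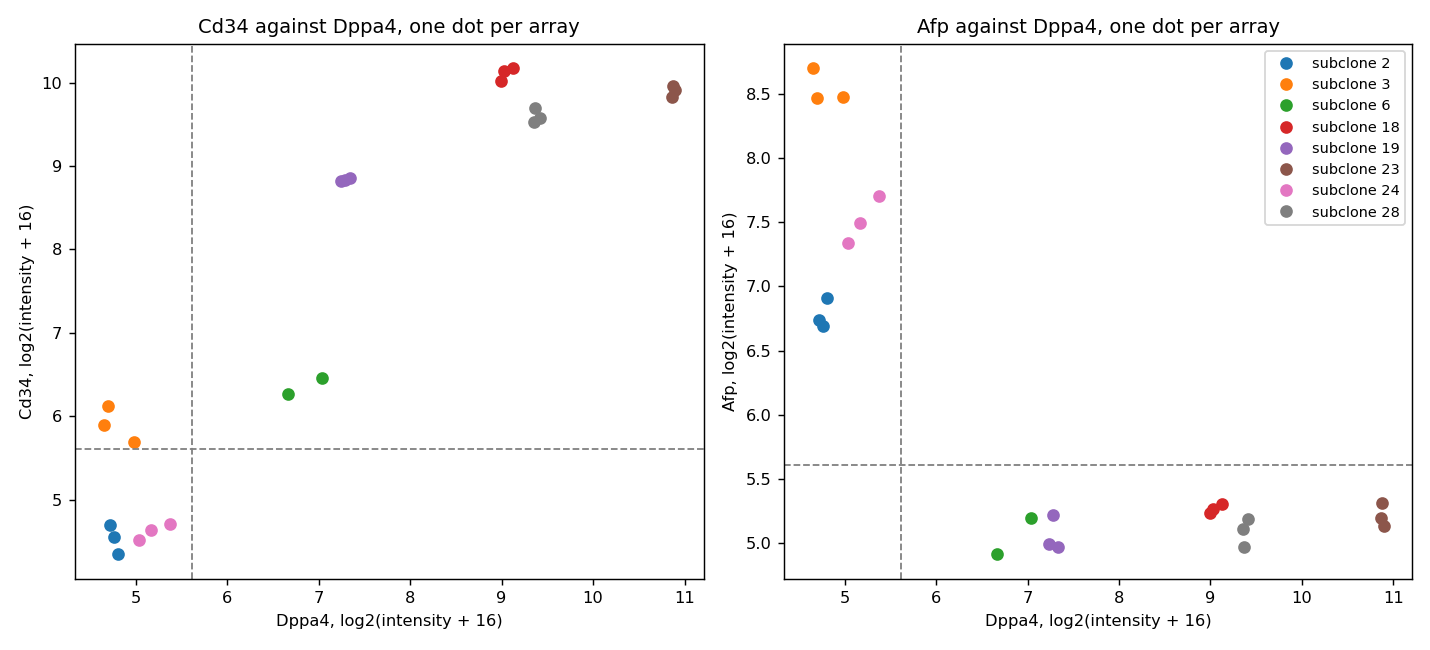
Level of Cd34 (left) and Afp (right) on the vertical axes against Dppa4 on the horizontal axes, as log2(intensity + 16), with 1 point per array, coloured by subclone, and dashed lines at the floor of 5.61. Cd34 climbs with Dppa4 (r = 0.92 over subclone means), whereas no subclone is above the floor for both Dppa4 and Afp.

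Afp has 5 probe sets, which allowed a check within the array. Besides the one used, 3 others were highest in subclone 3 and at the floor in the same number of subclones, 5 each. They spread by 3.42, 3.06 and 2.78 against 3.50 for the one used, and their subclone means followed it with r of at least 0.985. The fifth was at the floor in all 8 subclones. Alb (albumin), the adult counterpart of Afp beside it on the chromosome, was at the floor in all 8, with means of 4.69 to 5.11, and so was Albfm1. Afm, another member of the albumin family, had means of 5.57 to 6.14 that did not differ by the F-test (limma, adjusted p = 0.0676) but passed without the first array of subclone 6 (spread 1.06), and Gm9958 had means of 6.74 to 7.15. Farther out, 3 of the 10 nearest protein-coding genes above the floor passed with a spread of at least 1. All 3 are chemokines: Cxcl5 (2.32), Cxcl3 (2.24) and Pf4 (1.36). Over all genes 12.7% passed so, and 2284 of the 12273 genes above the floor in some subclone did when fitted alone.

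**Figure D4:**
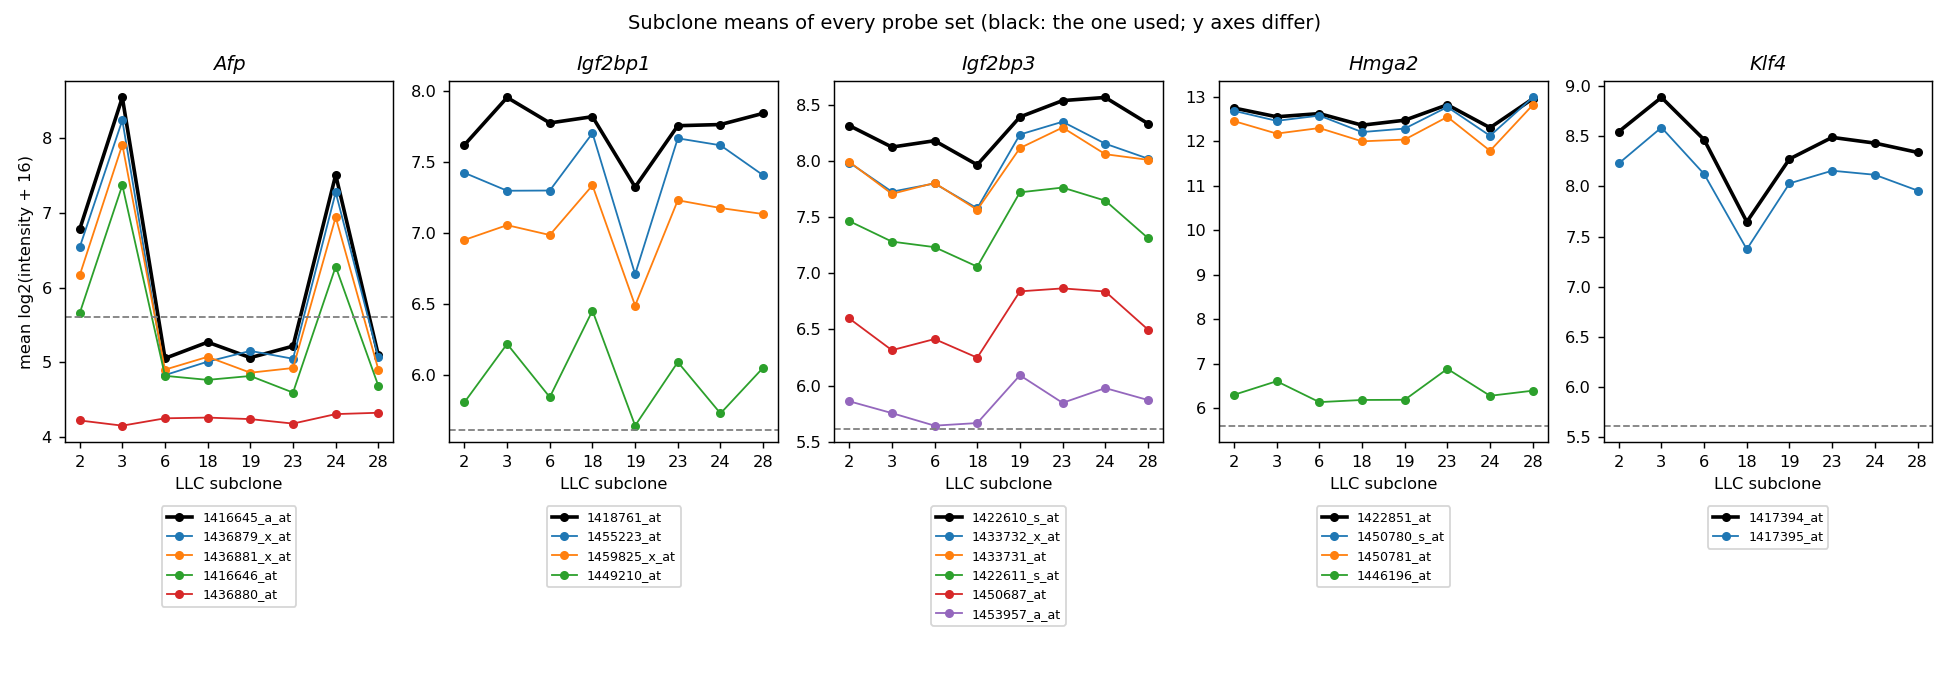
Subclone means, as log2(intensity + 16), for every probe set of Afp, Igf2bp1, Igf2bp3, Hmga2 and Klf4 across the 8 subclones, with the one used in black and a dashed line at the floor of 5.61. For Afp, 4 probe sets peak in subclone 3 and 1 stays at the floor, and both probe sets of Klf4 dip in subclone 18.

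Likeness to Afp was weaker than for the other variable genes, with no gene over r = 0.9. The nearest were Itpr2, an intracellular calcium channel (r = 0.87), Limch1, an actin-associated protein (0.82), and Nudt8 (0.81). Limch1, which shares chromosome 5, spread by 3.81, with its highest mean in subclone 2 (8.87), then 8.54 in subclone 3, 8.29 in subclone 24 and 7.16 in subclone 6. It averaged 5.07 to 6.01 in the other 4. So Limch1 put the Afp-positive clones on top but was also well above the floor in subclone 6, where Afp was not.

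Liver markers were read beside Afp. Of 7 measured hepatocyte markers, Apoa2 and Hnf4a were above the floor, and Alb, Ttr, Apoa1, Apob and Foxa3 at it, in all 8 subclones. Their summed intensity was 303.76 to 346.27 in subclone 3, within the 219.32 to 377.15 of all arrays. The wider list of liver genes and Afp regulators had 21 measured genes, of which 9 passed the F-test and 5 passed with a spread of at least 1 (23.8%, against 12.7% of all genes). Its median spread was 0.44, against 0.49 for all genes, and 10 of the 21 were at the floor everywhere. Rbp4, the plasma carrier of retinol, fell in subclone 18 to 9.01 ± 0.03 (SD, n = 3), against means of 10.33 to 11.44 in the others, a difference of -1.91 ± 0.05 (SE) from the mean of the other 7 (limma, adjusted p = 3.35e-16). Foxa2, a liver and lung forkhead factor, fell in subclone 23 to 7.33 ± 0.16, by -1.50 ± 0.05 (adjusted p = 2.48e-13), with means of 8.26 to 9.36 elsewhere.

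Zbtb20 and Zhx2 are known in the mouse as repressors of Afp after birth, and they differed in how far they moved. Zbtb20 was higher in subclone 23 at 9.49 ± 0.33, by 1.22 ± 0.14 against the mean of the other 7 (limma, adjusted p = 1.44e-06), or by 0.99, short of the call, with the mean over its probe sets. It averaged 8.04 in subclone 3, 8.41 in subclone 24 and 7.79 in subclone 2, the clones with Afp, and 7.99 to 9.49 in the clones without, so the groups overlapped. Zbtb20 lies on chromosome 16, as Dppa4 does. Zhx2 ran only from 7.42 in subclone 3 to 7.98 in subclone 18, a spread of 0.56. Cebpa, a liver and adipose factor, was lowest in subclone 18 at 6.39 and highest in subclone 24 at 7.60, and Foxa1 had means of 4.86 to 5.89, near the floor. Neither passed with a spread of at least 1 with a pseudocount of 64, nor did Foxa1 without the first array of subclone 2.

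Klf4, a zinc-finger factor of the skin, gut and pluripotent cells, on chromosome 4, was above the floor in every clone. Subclone 3 had intensities of 453.96, 437.77 and 482.47, and subclone 18 had 166.35, 189.34 and 198.58. The other 6 clones lay between, from 281.78 in subclone 19 to 362.73 in subclone 2. In the order of the means, the clones at both ends stood clear of their neighbours, and all other neighbours overlapped. Among the 6 between, subclone 19 was below subclones 2, 23, 6 and 24 on every array. Subclone 3 averaged 8.89 ± 0.07 and was 0.57 ± 0.05 (SE) above the mean of the other 7, and subclone 18 averaged 7.65 ± 0.12, a difference of -0.84 ± 0.05. Its second probe set spread by 1.22 against 1.24 and put the same clones at both ends. Over the 8 subclones the r of Klf4 was 0.60 with Afp, -0.50 with Dppa4 and -0.59 with Cd34. These moved with the clones included: r with Afp was 0.78 without subclone 18 and 0.29 without subclones 3 and 24, and r with Dppa4 was -0.90 without subclones 23 and 28.

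The genes most like Klf4 were Deptor, an inhibitor of the mTOR kinase (r = 0.94), Disp2 (0.94) and Akr1b8, an aldo-keto reductase (0.93). Deptor spread by 3.58, against 1.24 for Klf4, with 7.33 in subclone 18 against 9.75 to 10.91 in the others and its highest mean in subclone 3. All these genes, on chromosomes 15, 2 and 6, are elsewhere in the genome than Klf4.

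In the wider family of Klf and Sox factors, 27 genes were measured, 18 passed the F-test and 8 passed with a spread of at least 1 (29.6%, against 12.7% of all genes). The median spread was 0.66 and 8 of the 27 were at the floor everywhere. Sox11, a factor of the foetal nervous system, was at the floor in 5 clones and rose in subclone 18 to 7.33 ± 0.10 (SD, n = 3), in subclone 23 to 6.97 ± 0.18 and in subclone 28 to 6.88 ± 0.14. The differences from the mean of the other 7 were 2.32 ± 0.08 (SE; limma, adjusted p = 2.19e-14), 1.92 (1.05e-12) and 1.81 (2.04e-12), and the highest level was at least 3.28-fold above the floor. The size of these differences depends on the pseudocount, and with 64 those of subclones 23 and 28 were 0.96 and 0.88. These are the 3 clones with most Dppa4 and most Cd34, but subclones 19 and 6, which also carried Dppa4, had Sox11 at the floor. Sox5 fell in subclone 18 to 4.74 ± 0.13, at the floor, against 6.33 to 7.07 elsewhere (difference -1.95 ± 0.06, adjusted p = 5.7e-15), but with the mean over its probe sets the difference was -0.77.

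The remaining Klf and Sox genes that passed were above the floor throughout. Klf2 was lowest in subclone 3 at 5.99 ± 0.60 and highest in subclone 18 at 7.64, the reverse of Klf4, and in subclone 3 the difference was -1.05 ± 0.22 (SE; limma, adjusted p = 0.000715). Without the second array of subclone 3 it was -0.72, without the first of subclone 6 it was -0.98 and with a pseudocount of 64 it was -0.69, all short of the call. Klf5 followed Klf4 at its upper end only, with its highest mean of 8.08 in subclone 3 and its lowest of 6.74 in subclone 2. Sox9, a factor of cartilage and of lung and gut progenitors, ran from 8.31 in subclone 18 to 9.70 in subclone 28, and Sox4 from 11.04 in subclone 19 to 12.37 in subclone 18. Klf3 ran from 9.82 in subclone 3 to 10.98 in subclone 18, and Klf9 from 9.71 in subclone 18 to 10.77 in subclone 3. With the mean over all probe sets of a gene, Klf3 (0.48), Klf9 (0.70), Klf5 (0.78) and Sox4 (0.81) had spreads under 1.

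Sox2 itself had intensities of 1.92 to 11.8 on the 23 arrays (median 4.47), all under the floor, and its single probe set showed no clone apart from the others. Of the 26 other pluripotency genes listed, all were measured, 8 passed the F-test and 2, Klf2 and Klf5, passed with a spread of at least 1 (7.69%, against 12.7% of all genes). These 2 were among the 12 above the floor in some subclone. Among all 12273 such genes, 2284 passed so when fitted alone. The list's median spread was 0.45. At the floor in all 8 subclones were 14 of them: Pou5f1 (means of 4.74 to 5.10), Nanog (4.19 to 4.39), Zfp42, Tdgf1, Dppa5a, Utf1, Sall4, Lin28a, Tfcp2l1, Prdm14, Gdf3, Nr0b1, Tcl1 and Fbxo15. Those above it in all 8 included Myc, at 10.85 to 11.75, Tbx3, at 8.19 to 8.51, and Esrrb, at 7.18 to 7.49. Fgf4, at 6.79 to 7.24, Dnmt3l, at 6.40 to 7.11, and Trim71, at 5.94 to 6.54, were also among them. Dppa3 and L1td1 were above it in some subclones only. Dppa4 was therefore present in subclones 23, 28, 18, 19 and 6 without measurable Pou5f1, Nanog, Sox2 or Dppa2.

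Germline and cleavage-stage genes, which can be active together with Dppa4 in the embryo, were mostly at the floor and gave few differences. Of 25 measured germline genes 6 passed the F-test, 17 were at the floor everywhere, and 1, Prdm1, passed with a spread of at least 1 (4%, against 12.7% of all genes). Prdm1 was 1 of the 8 above the floor in some subclone. Among all 12273 such genes, 2284 passed so when fitted alone. Prdm1, a repressor needed for primordial germ cells and plasma cells, rose in subclone 28 to 6.33 ± 0.09, by 1.08 ± 0.13 (SE; limma, adjusted p = 2.65e-06), and it averaged 5.98 in subclone 19 and at most 5.22, at the floor, elsewhere. With a pseudocount of 64 its spread was 0.67. Rhox5, a homeobox gene of the placenta and testis, was bright in every clone, at 12.46 to 13.10. Of the 4 measured genes of the 2-cell embryo, 3 were at the floor everywhere, and 1, Zfp352, passed limma's F-test with a spread of 0.31 (adjusted p = 0.0264).

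Many germline genes are held silent by DNA methylation in somatic cells, and the genes that write, read and remove that mark were listed too. Of 20 measured, 16 passed the F-test and 2 passed with a spread of at least 1 (10%, against 12.7% of all genes), and their median spread was 0.53. Uhrf1, which guides maintenance methylation, ran from 9.66 in subclone 2 to 10.69 in subclone 18 and did not pass with a spread of 1 without the second array of subclone 2. Tet2, which oxidises 5-methylcytosine, ran from 7.88 in subclone 18 to 8.90 in subclone 28, and with a pseudocount of 64 both had spreads under 1. Dnmt1, the maintenance methyltransferase, ran from 10.24 in subclone 2 to 11.18 in subclone 18, a spread of 0.94, or 1.10 with the mean over its probe sets. The arrays do not measure methylation itself.

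Lin28b, on chromosome 10, had intensities of 1.36 to 5.56 with a median of 3.08, under the floor on every array, and Lin28a was also at the floor. Lin28b has 1 probe set on the array. The known let-7 targets among the 10 genes were above the floor in all 8 subclones, and the activity of let-7 was not tested. Hmga2, an architectural chromatin protein of the foetus, also on chromosome 10, was bright in every clone. It had intensities of 8027.1, 7777.51 and 7962.1 in subclone 28, the highest clone, and 4938.72, 4975.43 and 5218.4 in subclone 24, the lowest, with 5140.48 to 7444.43 in the other 6. Its spread was 0.65, from 12.30 to 12.95. Subclone 28 stood clear of subclone 23, the next in order, and subclone 2 of subclone 6, and all other neighbours overlapped. Of its other 3 probe sets, 2 also put subclone 28 highest and subclone 24 lowest and spread by 0.86 and 1.03, while the other followed less closely (r = 0.47).

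Igf2bp1, an RNA-binding protein of the foetus, had intensities of 148.58, 143.83 and 140.54 in subclone 19 and of 175.9 to 246.37 in the other 7. Subclone 19 was thus below every other clone, averaging 7.32 with a difference of -0.47 ± 0.03 (SE) from the mean of the other 7. All 4 of its probe sets were lowest in subclone 19, whereas they disagreed on the highest, which was subclone 3 for the one used and subclone 18 for the other 3. Igf2bp3, its close relative, had intensities of 216.83 to 386.07 (median 309.8), and every pair of neighbouring clones overlapped. Of its 6 probe sets, 5 were lowest in subclone 18, and the highest clone varied between them. Among the 20 measured genes of the let-7 pathway and its targets, 15 passed the F-test and 3 passed with a spread of at least 1 (15%, against 12.7% of all genes), with a median spread of 0.61. They were Fas, a death receptor, from 7.63 in subclone 28 to 8.90 in subclone 24, Tgfbr1, from 9.18 in subclone 18 to 10.19 in subclone 2, and Il6, which rose in subclone 28 to 6.28, by 1.22 ± 0.07 (SE; limma, adjusted p = 4.06e-11). Tgfbr1 lost its call without the first array of subclone 18 or of subclone 2 (0.99 in both) and with the mean over its probe sets (0.49), and with a pseudocount of 64 both Tgfbr1 and Il6 lost theirs.

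Other oncofetal genes were listed too. Of 17 measured, 9 passed the F-test, 5 were at the floor everywhere and 6 passed with a spread of at least 1 (35.3%, against 12.7% of all genes), with a median spread of 0.78 against 0.49. Tpbg, the 5T4 trophoblast antigen, rose in subclone 28 to 8.69 ± 0.06 (SD, n = 3), by 1.62 against the mean of the other 7 (limma, adjusted p = 7.34e-13). It fell in subclone 18 to 5.18 ± 0.08, which is at the floor, a difference of -2.40 ± 0.06 (SE; adjusted p = 9.59e-16). Subclones 28 and 18, which both carried Dppa4 and Cd34, thus lay at opposite ends for Tpbg.

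Ptn, a heparin-binding growth factor of the foetal brain, fell in subclone 3 to 8.94 ± 0.27, by -1.87 ± 0.11 (SE; limma, adjusted p = 1.43e-10), against means of 10.12 to 11.24 in the other 7. Subclone 3 is the clone with most Afp. Plac1, a placental gene of the X chromosome, rose in subclone 19 to 8.82 ± 0.01, by 1.43 ± 0.06 (adjusted p = 5.16e-13), against 6.70 to 7.97 elsewhere. Gpc3, a foetal liver proteoglycan often read beside Afp in liver tumours, spread by 1.09 but was at the floor in all 8 subclones, so its F-test (adjusted p = 0.00402) concerns values near background, and its spread was 0.44 with a pseudocount of 64. Its means were 5.52 in subclones 2 and 24 and 4.75 in subclone 3. Sox11 and Sox4, given above, completed the 6.

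**Figure D5:**
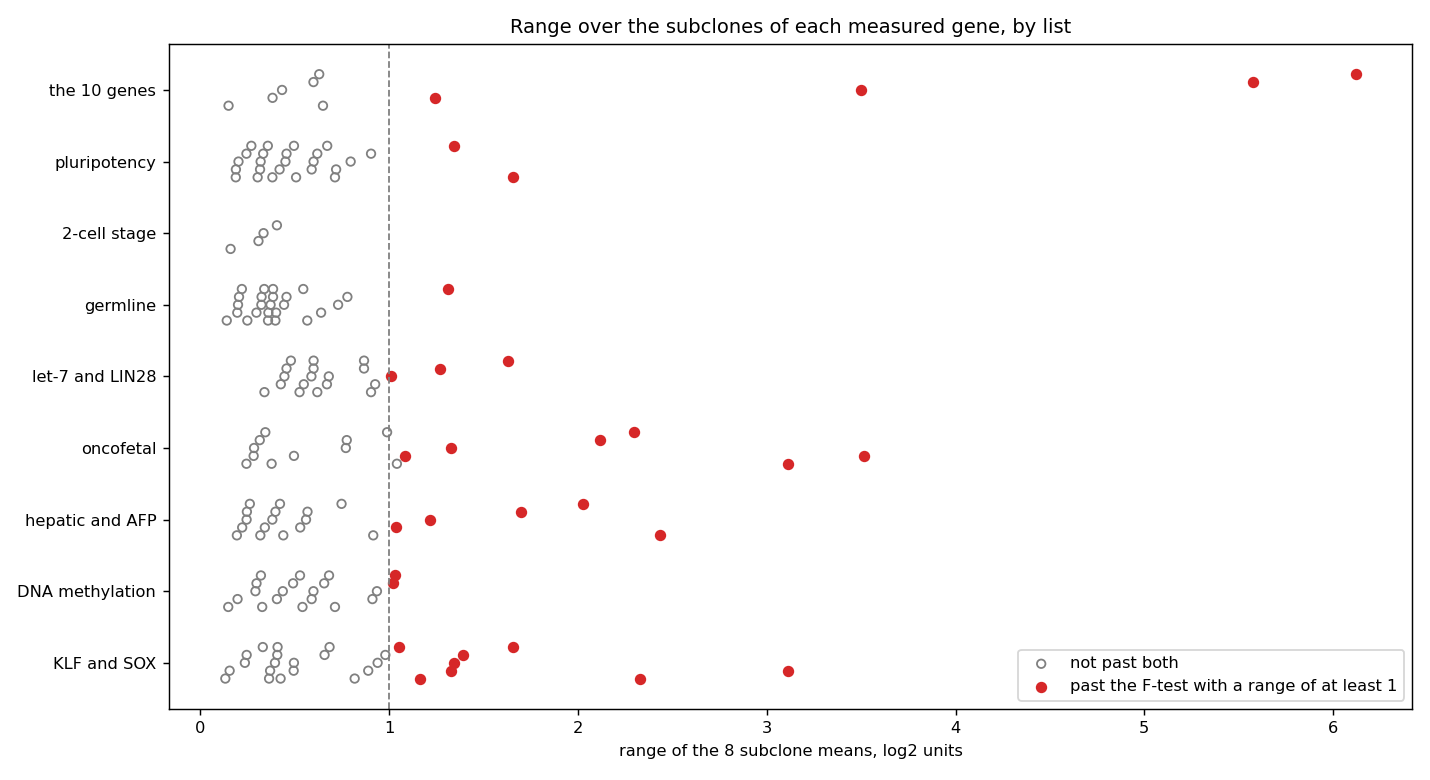
Spread of the subclone means, highest minus lowest in log2 units, for each measured gene of the lists on the horizontal axis, with 1 point per gene, the 10 genes chosen by name as the top row, and a dashed line at a spread of 1; red points passed the F-test with a spread of at least 1. Most pluripotency, germline and 2-cell genes lie below 1, and the oncofetal list reaches 3.51 with Tpbg.

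Each clone was also set against the mean of the other 7, with a call at limma's adjusted p under 0.05 and a difference of at least 1. The counts among the 10 genes follow from how the genes were chosen and are a description. In subclone 23, 2 genes were called higher, Dppa4 and Cd34 (0.588% of all genes), and 0 lower (0.583%). In subclone 28 the same 2 were higher (0.995%) and 1, Afp, lower (0.352%), and in subclone 18 they were higher (0.885%) and 0 were lower (1.8%). Afp was at the floor in these 3 clones as in subclones 19 and 6, so where among the 5 it was called lower is set by background values. Those 3 clones shared a profile of high Dppa4 and Cd34 without measurable Afp, and subclones 28 and 18 differed in Hmga2, 12.95 against 12.36, and in Klf4, 8.34 against 7.65.

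In subclone 19, Cd34 was called higher (0.896% of all genes) and Afp lower (0.835%), with Dppa4 within 0.02 of the mean of the others, or at 0.35 with a pseudocount of 1 and -0.30 with 64. Subclone 6 had 0 of the 10 called higher (0.412%) and 2 lower, Cd34 and Afp (0.115%). In subclone 3, Afp was called higher (0.533%) and Dppa4 and Cd34 lower (0.434%). Subclone 24 had the same calls, with Afp higher (0.363%) and the other 2 lower (0.709%). In subclone 2, 0 were called higher (0.484%), with Afp at 0.82, and Dppa4 and Cd34 were lower (0.643%). Subclones 3, 24 and 2 were thus the clones with Afp and without measurable Dppa4.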

How the data were processed

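Total RNA of 23 samples, 8 LLC subclones, was hybridised to Affymetrix arrays of 45101 probe sets. The authors deposited linear intensities, 0.61 to 17068.52. Their algorithm and scaling are not given in the labels or files. Control probe sets (64) were left out. The platform annotation gave 34945 probe sets 1 symbol, 932 several and 9160 others none, and symbols were updated through RefSeq (GRCm38.p6) for 34741. Where a gene had several probe sets (9010 genes), the brightest was used.

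With limma 3.58.1 (R 4.3.3), log2(intensity + 16) was fitted with a coefficient per subclone, with no filter on low values. A moderated F-test and contrasts of each subclone against the mean of the other 7 were adjusted by Benjamini-Hochberg over 18193 genes, with calls at 0.05 and, where stated, a spread or difference of at least 1. The script was tested on simulated data. The text names the 10 genes, list genes past the F-test with a spread of at least 1, the 3 nearest in pattern, chromosomal neighbours and other probe sets. The members and lists were chosen with earlier results of these data known, and so was the choice to examine chromosomes. No arrays held identical values. Same-numbered arrays did not deviate together on average (mean r = -0.0045 over 77 pairs, 15 over 0.1). Over 154 pairs of different numbers the mean r was 0.0024, with 34 over 0.1. The numbers were therefore not used to pair the samples in the main fit. Alternatives were other pseudocounts, a floor filter, quantile normalization, the mean over probe sets, a replicate block, other floors and leaving out each array.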

Additional observations from a re-analysis of the deposited data

How the results depend on the processing

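The 4 genes of the 10 that passed the F-test with a spread of at least 1 numbered 4 under every alternative run. Of the list counts and the count over all genes, these moved by over 1.5 times. With a pseudocount of 64 the genes past the F-test with a spread of at least 1 were 1495, against 2315 with 16, and the let-7, liver, germline and DNA methylation lists gave 1, 3, 0 and 0. With a pseudocount of 1 the germline list gave 3. With the mean over probe sets the pluripotency list gave 1 and the Klf and Sox list 4. Leaving out subclone 6 replicate 1 gave 2 germline genes (Asz1 gained), and leaving out subclone 2 replicate 2 gave 1 DNA methylation gene (Uhrf1 lost). Over all leave-one-out fits the counts were 2306 to 2379 for all genes, 2 to 3 for pluripotency and for let-7, 6 to 7 for oncofetal, 5 to 6 for liver, 1 to 2 for germline and for DNA methylation, and 8 to 9 for Klf and Sox genes. The F-test alone passed 11047 to 11402 genes. With the replicate block it passed 11158, against 11247 without it, 2321 genes passed with a spread of at least 1, and no list count changed. The labels do not say what same-numbered arrays share. No called difference of the 4 variable genes, or of a list gene named in the text, changed sign. The uncalled difference of Dppa4 in subclone 19, 0.02, was 0.35 with a pseudocount of 1, -0.30 with 64 and -0.03 after quantile normalization. The alternatives for list genes were chosen after seeing the data. Dppa4 spread by 7.27 with a pseudocount of 1 and 4.69 with 64, Cd34 by 7.10 and 4.02, Afp by 4.32 and 2.38, and Afp by 2.48 with the mean over probe sets, one of which is at the floor. With the floor at the 90th or 99th percentile of the receptor genes, 34 or 36 pairs of a gene and a subclone lay at it, and the 2 added are Cd34 in subclones 3 and 6. No detection calls were used, so signal over background limits every statement on dim genes.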
